A study of Homo sapiens with 22 samples.

Results

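THP-1 cells treated for 72 h with BRM014 were set directly against THP-1 cells treated for 72 h with DB2313. The comparison was between 4 of the 22 libraries of the series, 2 in each group, chosen by their titles. No control library entered the difference itself, while the filter, the scaling and the estimate of spread came from a fit of all 22. All 28063 genes in the files were taken, and the 16794 with enough reads were tested. The series as a whole measured RNA from human acute myeloid leukaemia lines in 11 groups of 2 libraries.

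THP-1 is a monocytic leukaemia line that carries a KMT2A-MLLT3 fusion. The cells of both groups are labelled as wild type and were grown in RPMI with 10% fetal bovine serum. The first group had received 1 µM BRM014 for 72 h and the second 3 µM DB2313 for 72 h, so the times matched and the doses did not. THP-1 cells in dimethyl sulfoxide (DMSO), the solvent, gave 2 more libraries, whose levels are set beside the comparison. For these libraries the labels leave the time in DMSO unnamed, and they are silent on whether cells for DB2313 were grown and processed alongside those for BRM014. Handling and treatment therefore cannot be told apart. Separate cultures for the 2 libraries of a group are not stated either, so a p-value here rests on the library-to-library spread, technical or not.

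BRM014 blocks the ATPases SMARCA4 and SMARCA2, the motors with which SWI/SNF complexes slide and evict nucleosomes and keep enhancers open. PU.1, the product of SPI1, is an ETS-family transcription factor that binds purine-rich sites and sets up the enhancers of monocytes and macrophages. DB2313 is a small molecule that binds the DNA minor groove beside PU.1 sites and keeps PU.1 off them. In myeloid cells PU.1 recruits SWI/SNF complexes to its sites. The comparison thus sets a blocker of the remodelling motor against a compound directed at the sites of the factor. Line and time are the same. Neither remodelling nor PU.1 binding was measured in these libraries.

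The libraries held 18092647 and 16310590 reads in genes with BRM014, and 18917303 and 21186732 with DB2313. Replicates correlated at r = 0.986 with BRM014 and r = 0.988 with DB2313 across genes on the log2 CPM scale, where genes are not independent replicates. Reads outside any annotated feature made up 19.17% and 18.8% of the BRM014 libraries, 17.91% and 18.71% of the DB2313 libraries and 16.48% and 15.83% of the DMSO libraries. Their part in the results was not tested. Values are CPM, the usual depth-scaled read count, here on TMM-scaled totals of reads in genes. Fold changes are on the log2 scale, BRM014 minus DB2313, ± the standard error of the fit (2 libraries in each group). Whether reads were counted by strand is not given in the sources used here, so genes whose exons overlap a gene on the other strand have uncertain counts, among them CDKN1A, SLC2A1, BAK1, BOK and KRT8. A gene is called higher or lower where the adjusted p of edgeR's quasi-likelihood test is under 0.05.

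The genes of the drug targets behaved differently from each other. SPI1 (chr11:47354860-47378576, minus strand, GRCh38) had 52.3 and 49.7 CPM with BRM014, against 297 and 249 CPM with DB2313. The DMSO libraries held 299 and 315 CPM. SPI1 RNA was thus lower with BRM014, by a log2 difference of -2.42 ± 0.12 (adjusted p = 1.15e-12). The groups did not overlap, which held for 80.6% of all genes. Both DB2313 libraries lay under both DMSO libraries, but this difference was not called in the main fit. The share of all genes without overlap was not counted for DB2313 against DMSO. The log2 difference of DB2313 from DMSO was -0.17 ± 0.11 (adjusted p = 0.198), which became -0.90 (adjusted p = 1.55e-09) when fold changes were corrected for GC content.

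SMARCA4 had 206 and 223 CPM with BRM014 and 252 and 267 CPM with DB2313. Its log2 difference of -0.27 ± 0.07 (adjusted p = 0.00156) was called lower, but turned to 0.08 (adjusted p = 0.223) with the GC correction. SMARCA2 had 262 and 262 CPM with BRM014 and 274 and 278 CPM with DB2313, and its difference of -0.07 ± 0.06 was not called (adjusted p = 0.294). The GC correction made that difference -0.30 (adjusted p = 9.85e-05). Both genes were called lower than with DMSO in both treated groups. The log2 differences of SMARCA4 were -0.54 with BRM014 and -0.26 with DB2313, and those of SMARCA2 were -0.43 and -0.36. With the GC correction, SMARCA2 with DB2313 was no longer called (-0.04). Neither compound left the cells without RNA for its target.

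**Figure D1:**
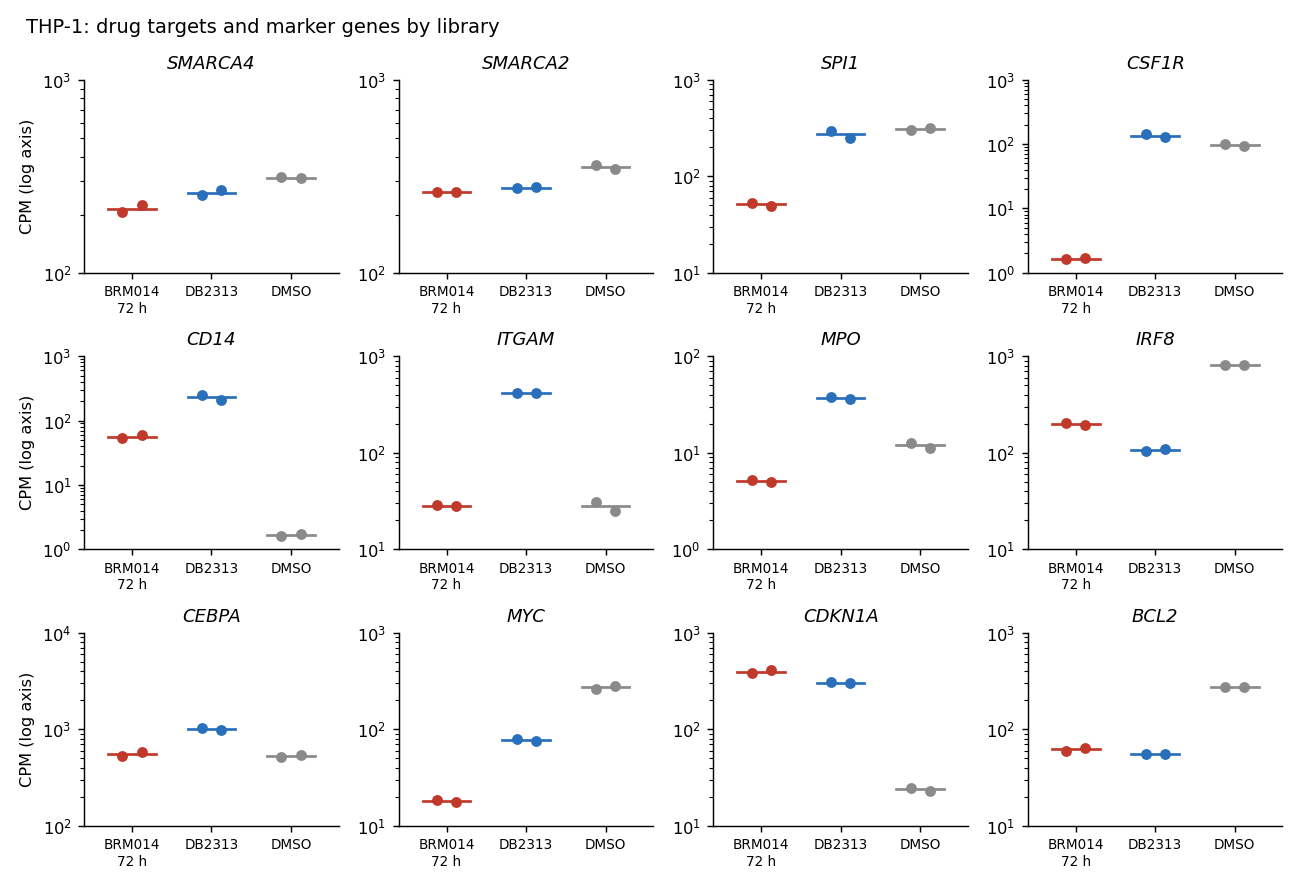
CPM (log axis) of 12 genes in each of 2 libraries with BRM014 for 72 h, 2 with DB2313 and 2 with DMSO, with a bar at each group mean. SPI1, CSF1R, ITGAM and MPO lie lower with BRM014 than with DB2313, IRF8 lies higher, and BCL2 and SMARCA2 lie close together in the 2 treated groups.

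Over all genes, 5101 (30.4%) were called higher and 5186 (30.9%) lower with BRM014 than with DB2313, 61.3% in all. At least a 2-fold difference was reached by 2108 called genes (12.6%) that were higher and 3003 (17.9%) that were lower. The large differences were mostly lower values with BRM014. At a log2 size of at least 5, there were 74 higher and 453 lower genes, and at 8 or more, 5 higher and 110 lower. These counts include genes with few or no reads in a group, for which the fitted size is no measured size. Of genes with at least 10 CPM in one group, 19 had no read in either BRM014 library and 0 had no read in either DB2313 library. The values of both groups did not overlap for 80.6% of genes. For 3720 genes (22.2%) the 95% interval of the difference lay inside 1.5-fold, and 1156 of these were called all the same. A further 3943 genes were neither called nor bounded in that way.

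**Figure D2:**
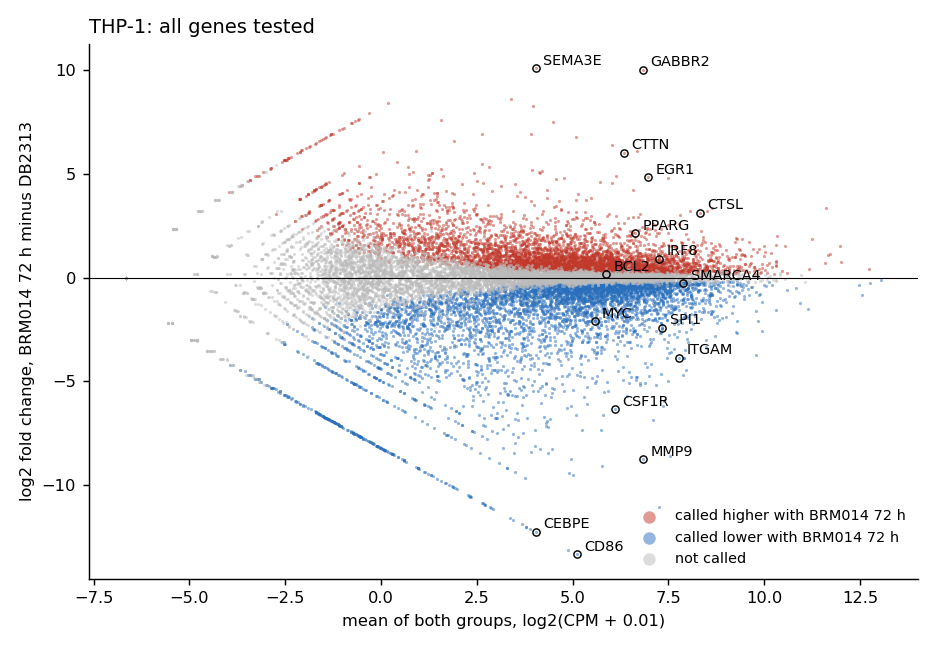
Log2 fold change of BRM014 minus DB2313 against the mean level of both groups, log2(CPM + 0.01), for the 16794 genes tested. Red points were called higher and blue points lower with BRM014, and the largest differences lie below 0; for genes with no read in one group, which form the diagonal lines, the plotted value depends on the fit and is no measured size.

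Both treated groups differed widely from DMSO. Against DMSO, 58.9% of genes were called with BRM014 (30.9% higher, 28% lower) and 65.4% with DB2313 (35.9% higher, 29.5% lower). These 2 comparisons share the DMSO libraries, so below they are given side by side for single genes and lists, and not combined. Counts of list members below are to be read beside the shares over all genes in the same comparison.

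Among called genes with at least 10 CPM in the higher group, the 12 with the lowest fold change had no read in either BRM014 library. First was CD86 (chr3:122055366-122121139, plus strand), the ligand with which antigen-presenting cells co-stimulate T cells, with 71.8 and 67.1 CPM with DB2313 and 0.501 and 0.350 CPM with DMSO. Taking 3 counts over the group as the floor, CD86 was at least 839-fold lower with BRM014. CD22, a sialic acid receptor best known from B cells, had 54.9 and 63.6 CPM with DB2313 and was at least 721-fold lower with BRM014. CEBPE (chr14:23117304-23119616, minus strand), the transcription factor of granulocyte maturation, had 35.2 and 30.4 CPM with DB2313 and was at least 395-fold lower.

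Among the 12, the receptor CLEC5A had 29.1 and 29.7 CPM with DB2313, and the chemokine CCL22 had 29.4 and 26.0 CPM. PADI4, which citrullinates histones in neutrophils, had 20.1 and 21.2 CPM. The others were S100B, ANKRD22, FCMR, the receptor for the Fc part of IgM, PAX8-AS1, EPS8L3 and ABI3, with 13.5 to 29.1 CPM with DB2313. PAX8-AS1 and ABI3 share exon sequence with a gene on the other strand (PAX8 and GNGT2), and CD22 with MIR5196, so their counts are uncertain. Of these 12 genes, 8 lay under 1 CPM in both DMSO libraries. The remaining CEBPE, CLEC5A, CCL22 and EPS8L3 had 4.70 to 11.2 CPM with DMSO. CEBPE for instance had 11.2 and 10.1 CPM there, between no reads with BRM014 and the higher level with DB2313.

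SEMA3E, a secreted semaphorin and the gene with the highest fold change at that level, had 34.5 and 31.5 CPM with BRM014 and 1 read in all with DB2313. The ratio of its CPM was 1392 (exact 95% interval 249 to 55007, counting error only). GABBR2 (chr9:98288082-98709197, minus strand), a subunit of the GABA-B receptor, had 224 and 234 CPM with BRM014, 0.205 and 0.222 CPM with DB2313 and 12.3 and 10.5 CPM with DMSO, a log2 difference of 10.02 ± 0.30 (adjusted p = 3.29e-13). CTTN (chr11:70398404-70436584, plus strand), which codes for the branched-actin protein cortactin, had 158 and 159 CPM with BRM014 against 2.46 and 2.44 CPM with DB2313, a log2 difference of 6.01 ± 0.14 (adjusted p = 2.42e-17). CTTN was near silent with DMSO too (0.564 and 0.600 CPM), and cells with BRM014 for 24 h had 134 and 135 CPM.

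KDR, the main receptor for vascular endothelial growth factor, had 31.6 and 28.1 CPM with BRM014 and 0.205 and 0.266 CPM with DB2313. CDH1, E-cadherin, had 33.8 and 28.6 CPM with BRM014 and 4 reads in all with DB2313. Its log2 difference of 8.25 ± 0.69 was 12.19 without DB2313 replicate 1 and 7.2 without replicate 2, and DESeq2 gave an adjusted p of 0.302. The kinase receptor ROS1, the ERK-responsive factor FOSB, RILPL1 and the long noncoding RNAs LINC00968 and CASC9 were also among the 12 highest.

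Of the 12 highest, 7 had at least 1 CPM in a DMSO library, SERPINB10 and UGT3A2 among them. The others were GABBR2, CASC9, ROS1, FOSB and LINC00968. Their log2 differences from DMSO were -5.69, -5.25, -4.27, -2.14 and -0.65 with DB2313, the last not called. With BRM014 they were 4.33, 1.67, 2.09, 3.96 and 6.12. SERPINB10 and UGT3A2 differed in that neither was higher with BRM014 than with DMSO. SERPINB10, a serpin of bone marrow cells, had 42.4 and 46.7 CPM with BRM014, 0.256 and 0.222 CPM with DB2313 and 81.7 and 92.0 CPM with DMSO. UGT3A2, a glycosyltransferase, had 20.9 and 21.2 CPM with BRM014, 2 reads in all with DB2313 and 21.2 and 22.6 CPM with DMSO. Both were thus close to silent with DB2313 and not with BRM014, where SERPINB10 was lower than with DMSO and UGT3A2 was not called. Their log2 differences from DMSO were -0.96 ± 0.21 and -0.06 ± 0.27 with BRM014, and -8.47 ± 0.38 and -8.66 ± 0.51 with DB2313. Without one DB2313 library, the BRM014 minus DB2313 difference of UGT3A2 was 7.59 or 11.62.

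PU.1 target genes were mostly lower with BRM014 than with DB2313. Of 37 tested, 29 were lower and 2 higher, beside 30.9% and 30.4% over all genes, with a median log2 difference of -1.72 beside 0.01. Against DMSO, 4 were higher and 25 lower with BRM014 (30.9% and 28% over all genes). With DB2313, 21 were higher and 8 lower (35.9% and 29.5% over all genes). For BRM014 minus DB2313, the counts with the GC correction were 29 lower and 3 higher. The GC-corrected counts against DMSO were 4 higher and 25 lower with BRM014, and 19 higher and 10 lower with DB2313.

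CSF1R (chr5:150053291-150113372, minus strand), the receptor for the macrophage growth factor, had 1.63 and 1.68 CPM with BRM014 against 142 and 129 CPM with DB2313, a log2 difference of -6.35 ± 0.17 (adjusted p = 7.90e-17). With DMSO it had 100.1 and 91.9 CPM. The DB2313 libraries therefore lay above both DMSO libraries, and the BRM014 libraries far below (DB2313 minus DMSO 0.50, adjusted p = 0.000404, no longer called with the GC correction at 0.10).

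ITGAM (chr16:31259967-31332892, plus strand), the integrin chain CD11b, had 28.9 and 27.8 CPM with BRM014, 414 and 412 CPM with DB2313 and 30.7 and 24.7 CPM with DMSO. The BRM014 libraries overlapped the DMSO range (0.04 ± 0.10, adjusted p = 0.768) while both DB2313 libraries lay far above it, and the direct log2 difference was -3.86 ± 0.10 (adjusted p = 5.23e-17). ITGAX, the CD11c chain, had 9.76 and 8.29 CPM with BRM014, 237 and 252 CPM with DB2313 and 53.3 and 49.2 CPM with DMSO. The Toll-like receptor TLR4 differed by -3.51 ± 0.19, the Fc receptor gamma chain FCER1G by -3.49 ± 0.13 and the kinase BTK by -3.10 ± 0.09, and each was called lower.

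CD14, the co-receptor for bacterial lipopolysaccharide, rose against DMSO with both compounds. It had 53.2 and 59.2 CPM with BRM014, 250.2 and 207 CPM with DB2313 and 1.63 and 1.70 CPM with DMSO, so that the direct log2 difference was -2.02 ± 0.14 (adjusted p = 1.38e-10). MPO, the myeloperoxidase of azurophil granules, had 5.19 and 4.99 CPM with BRM014, 38.1 and 36.3 CPM with DB2313 and 12.6 and 11.3 CPM with DMSO and a direct log2 difference of -2.87 ± 0.20 (adjusted p = 1.75e-10). Both higher members were phagocyte genes, CD68 and LYZ. CD68, a lysosomal glycoprotein of macrophages, had 636 and 669.7 CPM with BRM014 and 314 and 286 CPM with DB2313. LYZ, lysozyme, had 87.2 and 91.1 CPM with BRM014 and 59.0 and 57.1 CPM with DB2313, both far under the 1933 and 1772 CPM with DMSO.

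**Figure D3:**
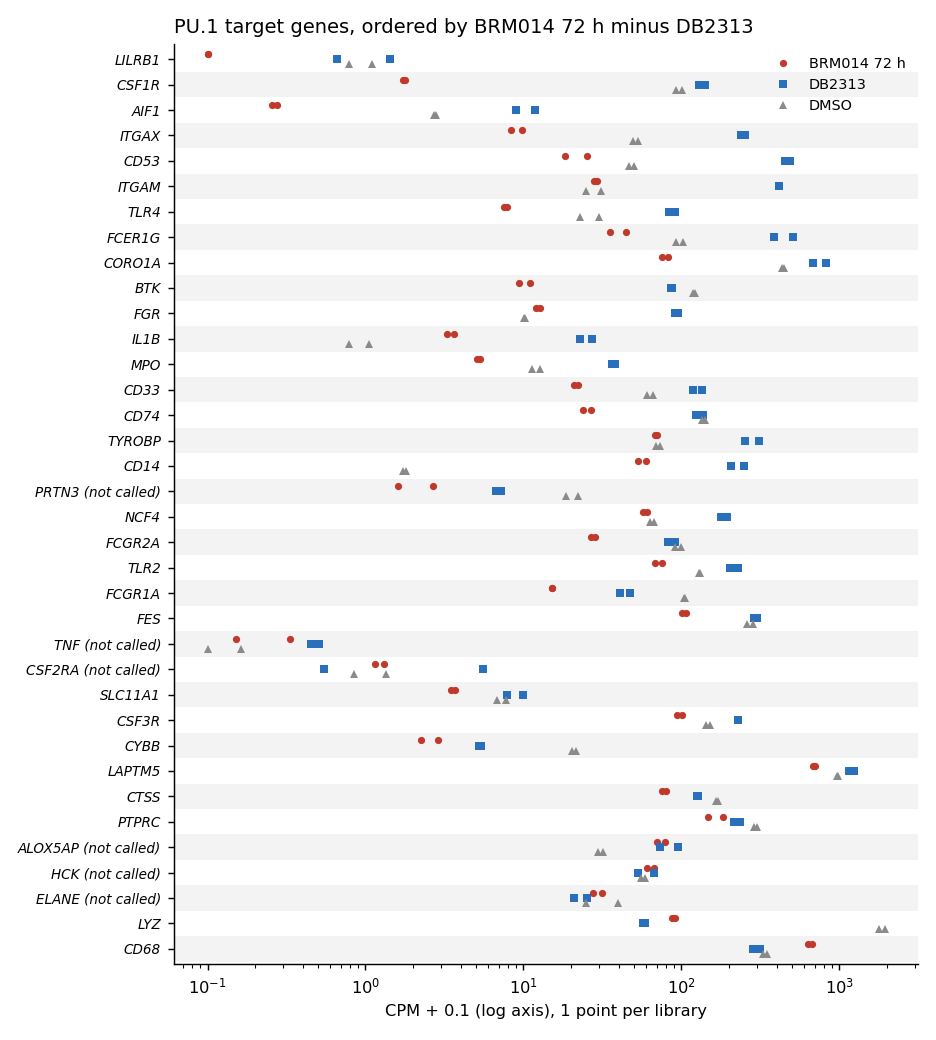
CPM + 0.1 (log axis) of 36 of the 37 tested PU.1 target genes in each library, red circles for BRM014 at 72 h, blue squares for DB2313 and grey triangles for DMSO, ordered by the log2 difference of BRM014 minus DB2313. Most genes have their red points to the left of their blue points; LYZ and CD68 at the bottom are the 2 called higher.

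The promoters of CSF1R, CD86 and ITGAM are shown for genes lower with BRM014, and those of EGR1 and GABBR2 for genes higher. The genes were picked with their values known. Their promoters are examples and stand for no wider set. They run from 250 bases before to 50 after a start listed by RefSeq on GRCh38.p14, 5′ to 3′ on the gene's strand. Capitals mark GAGGAA, which holds the core that PU.1 binds, and AAAGNGGAA, on either strand. The letters are a description of the sequence and show no binding.
CSF1R, second listed start, chr5:150086505-150086804, minus strand: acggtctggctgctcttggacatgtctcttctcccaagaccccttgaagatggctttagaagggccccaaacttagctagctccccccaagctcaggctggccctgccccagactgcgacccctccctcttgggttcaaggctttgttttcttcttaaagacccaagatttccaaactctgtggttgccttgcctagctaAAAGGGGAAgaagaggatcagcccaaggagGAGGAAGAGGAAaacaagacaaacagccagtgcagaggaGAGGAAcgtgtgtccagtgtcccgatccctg
CD86, first listed start, chr3:122055112-122055411, plus strand: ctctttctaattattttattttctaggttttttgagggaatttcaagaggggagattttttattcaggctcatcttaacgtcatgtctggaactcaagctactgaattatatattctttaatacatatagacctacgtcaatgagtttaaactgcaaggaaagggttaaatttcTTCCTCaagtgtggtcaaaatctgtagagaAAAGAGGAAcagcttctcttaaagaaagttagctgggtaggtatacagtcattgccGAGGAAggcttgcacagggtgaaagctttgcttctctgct
ITGAM, chr16:31259725-31260024, plus strand: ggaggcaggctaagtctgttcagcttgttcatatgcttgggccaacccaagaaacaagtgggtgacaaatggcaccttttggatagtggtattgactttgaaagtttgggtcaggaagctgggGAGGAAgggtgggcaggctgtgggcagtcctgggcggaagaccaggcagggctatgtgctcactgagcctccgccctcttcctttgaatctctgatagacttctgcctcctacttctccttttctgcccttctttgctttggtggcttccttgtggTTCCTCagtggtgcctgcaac
EGR1, chr5:138465229-138465528, plus strand: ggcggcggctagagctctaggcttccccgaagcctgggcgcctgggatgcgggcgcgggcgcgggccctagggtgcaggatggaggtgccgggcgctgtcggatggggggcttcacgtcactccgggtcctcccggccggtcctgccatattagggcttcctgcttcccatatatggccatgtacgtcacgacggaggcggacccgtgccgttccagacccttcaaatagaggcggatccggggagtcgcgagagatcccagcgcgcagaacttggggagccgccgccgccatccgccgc
GABBR2, chr9:98708886-98709185, minus strand: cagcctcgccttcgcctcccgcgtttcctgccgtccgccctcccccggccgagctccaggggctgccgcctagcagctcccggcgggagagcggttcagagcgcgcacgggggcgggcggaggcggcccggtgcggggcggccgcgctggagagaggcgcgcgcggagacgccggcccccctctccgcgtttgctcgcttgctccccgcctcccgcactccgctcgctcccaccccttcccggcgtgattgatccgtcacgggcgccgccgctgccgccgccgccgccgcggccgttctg

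Where a gene had 2 listed starts, the window with matches is shown; the first of CSF1R and the second of CD86 held none. The CSF1R window held 3 matches of GAGGAA and 1 of AAAGNGGAA, CD86 likewise 3 and 1, ITGAM 2 and 0, and EGR1 and GABBR2 none. A window without these matches can still hold the shorter core, which is not marked. Over all promoters in the table, 27.9% held GAGGAA and 2.73% held AAAGNGGAA. Promoters of genes lower by at least 2-fold with BRM014 held them in 32.6% and 4.21% of cases, and those of genes higher by at least 2-fold in 24.9% and 1.84%. Of the 37 PU.1 target genes, 29 had an entry, with 38 promoters. GAGGAA occurred in 24 of these and AAAGNGGAA in 10, in a list that was chosen as known PU.1 targets. Both motifs overlapped in 1.19% of all promoters.

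ETS factors and PU.1 partners differed in both directions, with 9 lower and 5 higher of 17 tested (3 higher with the GC correction). The shares over all genes were 30.9% lower and 30.4% higher. ETS1 had 101 and 97.2 CPM with BRM014, 456 and 483 CPM with DB2313 and 35.1 and 37.6 CPM with DMSO, a log2 difference of -2.25 ± 0.09 (adjusted p = 2.82e-14). ETS2 differed by -1.90 ± 0.08 and FLI1 by -1.88 ± 0.08, both lower with BRM014. The close PU.1 relative SPIB was higher, with 7.71 and 5.68 CPM with BRM014 and 0.870 and 0.444 CPM with DB2313. IRF8, the partner of PU.1 in monocyte commitment, had 202 and 195 CPM with BRM014 and 104 and 110.2 CPM with DB2313, a log2 difference of 0.89 ± 0.09 (adjusted p = 2.34e-08), both far below the 817 and 816 CPM with DMSO.

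Of 25 other blood transcription factors, 12 were lower and 8 higher, beside 30.9% and 30.4% over all genes. CEBPE stood first among the lower ones. LYL1, a partner of stem and progenitor factors, had 13.4 and 13.3 CPM with BRM014 and 111 and 99.9 CPM with DB2313. CEBPA, the early myeloid factor, had 529 and 577 CPM with BRM014, 1025 and 969.5 CPM with DB2313 and 519.6 and 540.1 CPM with DMSO, a direct log2 difference of -0.85 ± 0.10 (adjusted p = 5.71e-07). Among the higher ones, MYB, which keeps progenitors immature, had 383 and 363 CPM with BRM014, 60.5 and 62.3 CPM with DB2313 and 664 and 682 CPM with DMSO. KLF2 had 90.1 and 74.5 CPM with BRM014 and 14.4 and 13.2 CPM with DB2313.

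Genes of the KMT2A fusion program were called about as often as all genes (30.4% higher, 30.9% lower), with 8 higher and 7 lower of 24. The cell-cycle kinase CDK6, a direct fusion target, had 524 and 482 CPM with BRM014, 148 and 168 CPM with DB2313 and 425 and 448 CPM with DMSO. The growth factor receptor KIT had 2.47 and 1.91 CPM with BRM014 and 36.2 and 41.4 CPM with DB2313. HOXA10 and HOXA11 were higher with BRM014, by 0.70 ± 0.13 and 1.14 ± 0.09; both lie opposite an antisense RNA, so reads of either strand may be included. HOXA9 and MEIS1 were not called.

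Interferon-response genes were lower with BRM014 in most cases, 23 of 30 tested with 3 higher (30.9% and 30.4% over all genes). Their median log2 difference was -1.48. Against DMSO, 13 were higher and 8 lower with BRM014 (30.9% and 28% over all genes). With DB2313, 27 were higher and 2 lower (35.9% and 29.5% over all genes). IFITM1 (chr11:313506-315272, plus strand), a membrane protein that blocks virus entry, had 0.210 and 0.174 CPM with BRM014, 123 and 93.4 CPM with DB2313 and 4.01 and 4.20 CPM with DMSO. Its neighbour IFITM3 had 7.29 and 8.35 CPM with BRM014 and 321 and 238 CPM with DB2313. IFITM genes are near-identical in part, so reads may be split between them. MX1, an antiviral GTPase, had 2.57 and 2.72 CPM with BRM014, 70.7 and 70.8 CPM with DB2313 and 5.07 and 7.25 CPM with DMSO, a log2 difference of -4.74 ± 0.17 (adjusted p = 5.81e-15). The signal carrier STAT2 was lower (-2.06 ± 0.11). IFIT2 was higher, with 16.8 and 15.9 CPM with BRM014 and 8.55 and 6.57 CPM with DB2313, as was XAF1 (1.67 ± 0.15). IFI35 was called higher at 0.37 ± 0.14 (adjusted p = 0.026), a call lost without BRM014 replicate 2 (0.27, adjusted p = 0.187) or DB2313 replicate 2 (0.16, adjusted p = 0.384).

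Inflammatory cytokines and chemokines gave 11 lower and 4 higher of 22, beside 30.9% and 30.4% over all genes. CCL2, which draws monocytes, had 2 reads in all with BRM014 and 5.78 and 3.68 CPM with DB2313. The ratio of its CPM was 0.0118 (exact 95% interval 0.00142 to 0.0433, counting error only). IL1B, the inflammasome product, differed by -2.88 ± 0.43 and the adhesion ligand ICAM1 by -2.83 ± 0.38. The neutrophil chemoattractant CXCL8 was higher, with 6.35 and 3.59 CPM with BRM014 and 0.819 and 0.532 CPM with DB2313, both under the 23.2 and 15.9 CPM with DMSO. NFKBIA, the inhibitor that NF-kappaB induces, was higher by 0.61 ± 0.13.

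Macrophage markers were split by gene: 16 of 29 were lower and 7 higher, beside 30.9% and 30.4% over all genes. MMP9 (chr20:46008908-46016561, plus strand), a secreted gelatinase, had 0.577 and 0.464 CPM with BRM014, 239.6 and 220.2 CPM with DB2313 and 0.250 and 0.800 CPM with DMSO, a log2 difference of -8.76 ± 0.29 (adjusted p = 2.31e-15). The antisense RNA SLC12A5-AS1 shares exon sequence with it. VSIG4, a complement receptor, had 1 read in all with BRM014 and 28.7 and 25.7 CPM with DB2313, a CPM ratio of 0.00102 (exact 95% interval 2.57e-05 to 0.00567).

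Among the 7 higher macrophage markers, the lipoprotein gene APOE had 223 and 257 CPM with BRM014, 47.0 and 37.1 CPM with DB2313 and 8.95 and 8.40 CPM with DMSO, and the fatty acid receptor CD36 had 116 and 105 CPM with BRM014, 13.4 and 13.4 CPM with DB2313 and 34.2 and 30.7 CPM with DMSO. FN1, fibronectin, had 48.8 and 46.0 CPM with BRM014 and 5.38 and 4.30 CPM with DB2313. The levels of the macrophage list summed to 7543 and 7675 CPM with BRM014, 9190.2 and 8334 CPM with DB2313 and 2941 and 2973 CPM with DMSO. In bulk RNA, fewer cells with a program and less RNA of it in each cell cannot be told apart.

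Granule and neutrophil genes gave 13 lower and 3 higher of 21, beside 30.9% and 30.4% over all genes. The count of higher ones was 1 without DB2313 replicate 2, and 5 with no filter on low counts or with the 4 libraries alone in the fit. The formyl peptide receptor FPR2 had 1.84 and 1.10 CPM with BRM014 and 61.6 and 64.2 CPM with DB2313, a log2 difference of -5.40 ± 0.29 (adjusted p = 1.77e-11). The interleukin-8 receptor CXCR1 had no read with BRM014 and 6.66 and 7.99 CPM with DB2313, at least 89.2-fold lower. RNASE2, the eosinophil ribonuclease, was higher, with 572 and 475 CPM with BRM014 and 209.5 and 177 CPM with DB2313. The calcium-binding S100A8 and S100A9 were lower (-0.49 ± 0.15 and -1.15 ± 0.14).

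Adhesion and actin genes, 30 tested, had 19 lower and 6 higher members, beside 30.9% and 30.4% over all genes. Besides ITGAM and ITGAX, the gut-homing integrin chain ITGB7 had 28.8 and 32.9 CPM with BRM014, 458 and 447 CPM with DB2313 and 44.1 and 47.6 CPM with DMSO; its exons overlap those of ZNF740 on the other strand. The hyaluronan receptor CD44 and the integrin chain ITGA4 were lower (-1.71 ± 0.13 and -2.24 ± 0.11). The higher members were, besides CTTN, the podocyte and neuronal actin binder SYNPO (242 and 253 CPM with BRM014, 55.6 and 56.8 CPM with DB2313), tropomyosin TPM1, the laminin receptor chain ITGA6 (1.59 ± 0.12), vimentin (VIM, 1.56 ± 0.08) and ITGAV (0.38 ± 0.15).

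ERK-pathway genes did not move as a block: 7 of 24 were higher and 11 lower, beside 30.4% and 30.9% over all genes. The immediate early factor EGR1 (chr5:138465490-138469315, plus strand) had 289 and 196 CPM with BRM014, 8.09 and 8.92 CPM with DB2313 and 54.0 and 42.1 CPM with DMSO, a log2 difference of 4.83 ± 0.19 (adjusted p = 1.81e-14). FOS had 747 and 571 CPM with BRM014, 71.5 and 71.6 CPM with DB2313 and 274 and 289 CPM with DMSO, and FOSB had 228 and 177 CPM with BRM014 and 3.53 and 2.44 CPM with DB2313. The phosphatase DUSP1 followed, with 48.4 and 35.3 CPM with BRM014 and 3.89 and 3.90 CPM with DB2313. In each of these 4 genes both BRM014 libraries lay above both DB2313 libraries, while groups did not overlap for 80.6% of all genes. The lower members included other ERK output genes, ETV4 (-4.28 ± 0.21), ETV5 (-1.76 ± 0.13), DUSP5 (-3.33 ± 0.30), SPRY2 (-2.21 ± 0.09) and FOSL1 (-2.59 ± 0.21).

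MYC had 18.3 and 17.5 CPM with BRM014, 80.1 and 74.7 CPM with DB2313 and 262 and 284 CPM with DMSO. MYC was therefore lower than with DMSO in both treated groups, and lower again with BRM014, by a log2 difference of -2.11 ± 0.09 (adjusted p = 6.61e-14). Of the 30 genes of the list of MYC and ribosome biogenesis, 16 were higher with BRM014 than with DB2313 and 5 lower, MYC among the lower, with a median of 0.22. Against DMSO, 29 were lower with BRM014 and 28 with DB2313, beside 28% and 29.5% over all genes. The nucleolar methylase FBL had 91.4 and 96.1 CPM with BRM014, 54.7 and 42.0 CPM with DB2313 and 159 and 158 CPM with DMSO. CAD, the first enzyme of pyrimidine synthesis, had 118 and 123 CPM with BRM014, 61.0 and 62.6 CPM with DB2313 and 194 and 202 CPM with DMSO. RRP12 was lower, with 15.1 and 11.4 CPM with BRM014 and 47.3 and 41.4 CPM with DB2313.

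Genes of DNA replication were at about the background share in both directions, 10 higher and 9 lower of 27 (30.4% and 30.9% over all genes). MCM4, part of the replicative helicase, had 247 and 256 CPM with BRM014, 176 and 179 CPM with DB2313 and 705 and 689 CPM with DMSO. POLE, the catalytic subunit of a leading-strand DNA polymerase, had 123 and 143 CPM with BRM014 and 280.1 and 312 CPM with DB2313. Mitosis genes were more often lower with BRM014, 16 of 25 against 2 higher, with a median of -0.44. The mitotic kinase AURKA had 62.9 and 67.1 CPM with BRM014, 186 and 192 CPM with DB2313 and 133 and 134 CPM with DMSO. The cyclin CCNB1 had 98.5 and 85.0 CPM with BRM014, 219.8 and 209.7 CPM with DB2313 and 177 and 188 CPM with DMSO. KIF20A, a kinesin of cytokinesis, went the other way, with 46.1 and 46.7 CPM with BRM014 and 12.2 and 10.8 CPM with DB2313; its exons overlap those of CDC23 on the other strand.

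The p53 target genes split, 9 higher and 11 lower of 24, beside 30.4% and 30.9% over all genes. Against DMSO, however, 14 were higher with BRM014 and 15 with DB2313, beside 30.9% and 35.9% over all genes. CDKN1A, the cyclin-dependent kinase inhibitor p21, had 384 and 406 CPM with BRM014, 311 and 298 CPM with DB2313 and 24.6 and 23.0 CPM with DMSO, and the direct difference was small, 0.38 ± 0.08 (adjusted p = 0.000333). MDM2, which degrades p53, had 332 and 305 CPM with BRM014 and 139.6 and 146 CPM with DB2313. The death receptor FAS had 1.68 and 1.10 CPM with BRM014 and 10.2 and 15.0 CPM with DB2313, and the antiproliferative gene BTG2 had 60.1 and 40.3 CPM with BRM014 and 278 and 260.1 CPM with DB2313.

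In the BCL2 family, which decides over mitochondrial cell death, 9 of 16 were lower and 2 higher, beside 30.9% and 30.4% over all genes. BCL2A1, a protective member, had 1 read in all with BRM014 and 22.5 and 16.6 CPM with DB2313, a CPM ratio of 0.00143 (exact 95% interval 3.61e-05 to 0.00797). BCL2 itself had 59.9 and 64.5 CPM with BRM014, 56.0 and 55.5 CPM with DB2313 and 272 and 275 CPM with DMSO, and its direct difference of 0.16 ± 0.07 was not called (adjusted p = 0.0715; 95% interval 0.0033 to 0.31). The pro-death members BIK, BMF and BAK1 were lower (-2.80 ± 0.19, -1.93 ± 0.15 and -1.62 ± 0.10), as was the protective MCL1 (-0.30 ± 0.06). BOK was higher at a low level (5.88 and 6.03 CPM with BRM014, 1.95 and 1.69 CPM with DB2313).

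Cholesterol synthesis genes were lower with BRM014 in 17 of 23 cases and higher in 1, beside 30.9% and 30.4% over all genes. Their median was -0.89. Against DMSO, 1 was higher and 19 lower with BRM014 (30.9% and 28% over all genes). With DB2313, 9 were higher and 5 lower (35.9% and 29.5% over all genes). INSIG1, the sterol sensor, had 18.4 and 19.4 CPM with BRM014, 163 and 159 CPM with DB2313 and 109 and 114 CPM with DMSO, a log2 difference of -3.10 ± 0.08 (adjusted p = 5.23e-17). The epoxidase SQLE had 99.8 and 100.2 CPM with BRM014, 375 and 379 CPM with DB2313 and 244 and 237 CPM with DMSO. The exception was the phosphomevalonate kinase PMVK (51.3 and 56.8 CPM with BRM014, 14.6 and 11.1 CPM with DB2313).

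Among 23 genes of sterol efflux and lipid handling, 10 were lower and 6 higher, beside 30.9% and 30.4% over all genes. The nuclear receptor PPARG had 161 and 160.1 CPM with BRM014, 38.2 and 35.5 CPM with DB2313 and 15.4 and 15.4 CPM with DMSO, a log2 difference of 2.13 ± 0.09 (adjusted p = 9.81e-14). The cholesterol exporter ABCG1 had 0.262 and 0.580 CPM with BRM014 and 23.4 and 20.8 CPM with DB2313, while ABCA1 was not called (-0.19 ± 0.13). The desaturases FADS1 and FADS2 differed by -2.44 ± 0.10 and -4.30 ± 0.13, but share exon sequence, so their reads may be mixed. SREBF1, the lipid synthesis regulator, had 36.1 and 35.8 CPM with BRM014, 173 and 177 CPM with DB2313 and 73.0 and 81.6 CPM with DMSO.

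Glycolysis genes were lower in 15 of 22 cases and higher in 2 (1 without BRM014 replicate 2 or DB2313 replicate 2), which was 18 lower and 1 higher with the GC correction. The glucose transporter SLC2A1 had 60.7 and 67.7 CPM with BRM014, 376 and 379 CPM with DB2313 and 308 and 315 CPM with DMSO. Hexokinase HK1 had 18.3 and 19.0 CPM with BRM014, 118 and 120.0 CPM with DB2313 and 53.7 and 49.7 CPM with DMSO, with a direct log2 difference of -2.68 ± 0.09 (adjusted p = 3.39e-15). LDHA, PGK1 and ENO1 were not called. Of 25 nuclear genes of mitochondrial respiration, 9 were higher and 5 lower, beside 30.4% and 30.9% over all genes. The higher ones included NDUFA4 (1.23 ± 0.10) and COX6C (1.04 ± 0.16). The count of lower ones was 3 without any 1 of 3 libraries, both of BRM014 and the first of DB2313.

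Lists of stress genes were mixed. Of the integrated stress response and serine synthesis, 13 of 20 were lower and 5 higher. DDIT4 had 15.1 and 18.7 CPM with BRM014, 52.8 and 43.7 CPM with DB2313 and 3.69 and 3.50 CPM with DMSO, and ATF4, the factor of this response, was not called (-0.03 ± 0.09). Of NRF2 and iron genes, 11 of 22 were lower and 4 higher, or 7 higher with the GC correction. Over all genes, 30.9% were lower and 30.4% higher. GCLC, the catalytic subunit of glutathione synthesis, had 34.9 and 34.7 CPM with BRM014, 139 and 145 CPM with DB2313 and 39.7 and 40.9 CPM with DMSO. The transferrin receptor TFRC had 461 and 415 CPM with BRM014 and 168 and 182 CPM with DB2313, and the pentose phosphate enzyme PGD had 523 and 526 CPM with BRM014 and 153 and 144 CPM with DB2313. Of unfolded protein and heat shock genes, 7 of 19 were higher and 4 lower (2 lower without BRM014 replicate 2). The shares over all genes were 30.4% and 30.9%. XBP1 led the higher ones with 558 and 514 CPM with BRM014, 176 and 153 CPM with DB2313 and 128 and 135 CPM with DMSO.

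Lysosomal genes were split, 13 higher and 11 lower of 26, beside 30.4% and 30.9% over all genes. The protease CTSL had 553 and 591 CPM with BRM014, 71.4 and 60.1 CPM with DB2313 and 76.7 and 76.5 CPM with DMSO, a log2 difference of 3.12 ± 0.08 (adjusted p = 9.38e-17). DNASE2, the acid nuclease, had 228 and 239 CPM with BRM014 and 39.5 and 39.2 CPM with DB2313, and the secreted growth factor precursor GRN had 1867 and 1935 CPM with BRM014, 668 and 634 CPM with DB2313 and 399.6 and 399.6 CPM with DMSO. Ceramidase ASAH1 and the galactosidase GLA were lower (-1.42 ± 0.08 and -1.73 ± 0.10).

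Histone genes were mostly higher with BRM014, 9 of 14 with 1 lower, beside 30.4% and 30.9% over all genes. Their median was 1.70. Messages of replication-dependent histones mostly lack a poly(A) tail, so these values reflect the polyadenylated share alone. HIST1H2AC had 22.7 and 18.9 CPM with BRM014, 5.07 and 3.86 CPM with DB2313 and 0.376 and 0.500 CPM with DMSO. The lower member, H1F0, codes for a linker histone made outside replication and had 253 and 279 CPM with BRM014 and 718 and 601 CPM with DB2313. Histone genes have many near-identical copies, between which reads may be split.

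Among 28 SWI/SNF subunits, 13 were higher and 5 lower with BRM014, beside 30.4% and 30.9% over all genes. SMARCD3, the subunit known from heart development, had 15.4 and 13.9 CPM with BRM014, 67.6 and 62.7 CPM with DB2313 and 10.6 and 9.40 CPM with DMSO. BICRAL, of the non-canonical complex, had 128 and 129.6 CPM with BRM014, 43.7 and 43.6 CPM with DB2313 and 49.7 and 48.2 CPM with DMSO, and SS18 had 144 and 137 CPM with BRM014 and 73.8 and 80.7 CPM with DB2313. SMARCD2, which was lower (-0.30 ± 0.08), came to 0.01 with the GC correction. Polycomb and other repression genes gave 6 higher and 5 lower of 22, near or under the shares over all genes (30.4% and 30.9%). EZH1 had 56.1 and 56.3 CPM with BRM014 and 25.8 and 27.4 CPM with DB2313, and the demethylase KDM6B had 37.0 and 36.2 CPM with BRM014, 86.6 and 91.4 CPM with DB2313 and 10.9 and 9.60 CPM with DMSO. Aminoacyl-tRNA synthetases, 7 higher and 8 lower of 20, are to be read against the same shares. Of MHC class II genes, 2 of 7 were higher and 4 lower, beside 30.4% and 30.9% over all genes. The invariant chain CD74 had 23.6 and 26.6 CPM with BRM014 and 137 and 123 CPM with DB2313; the other lower class II members had few reads, and leaving out any 1 of the 4 libraries brought the lower count to 2.

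**Figure D4:**
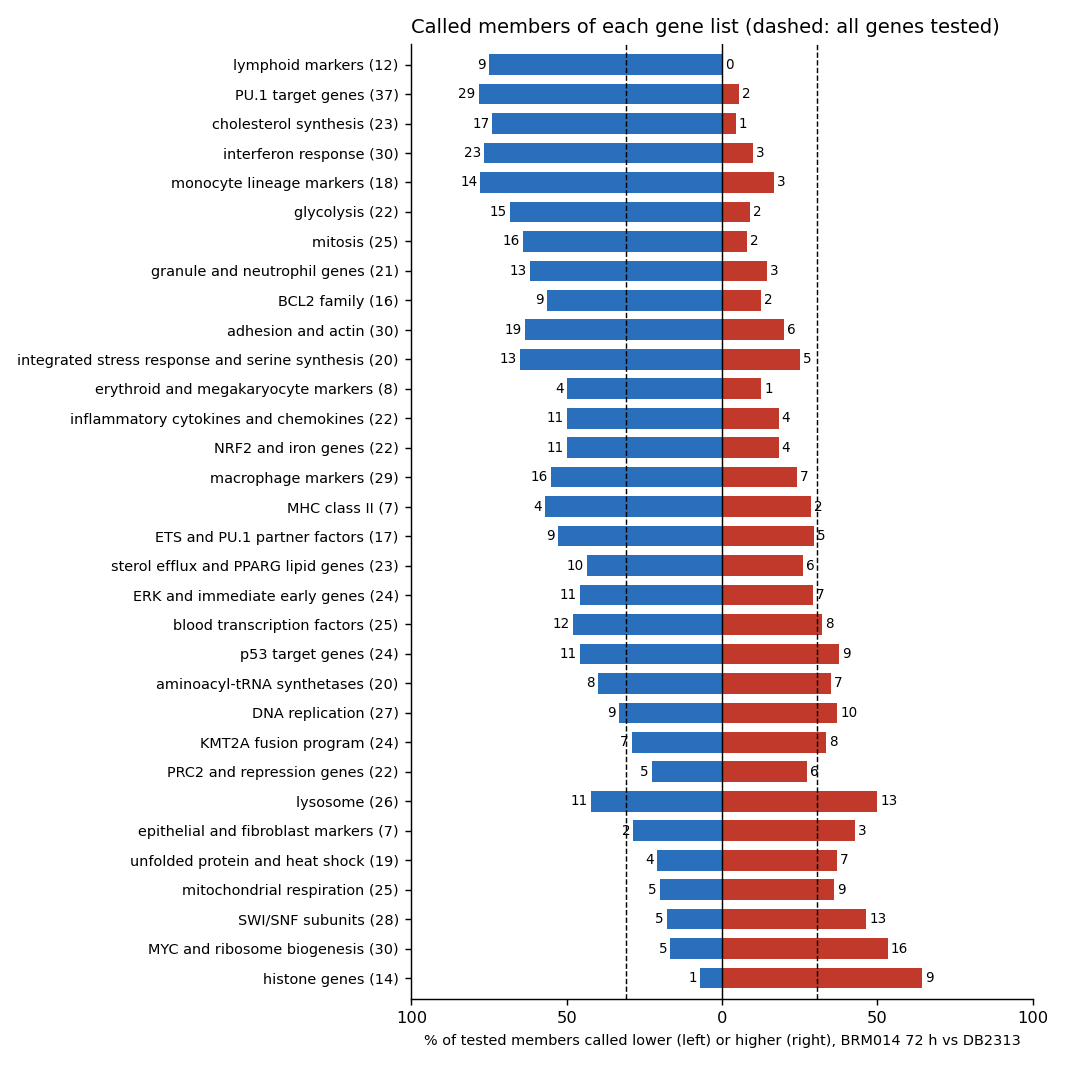
Share of the tested members of each of 32 gene lists that were called lower (blue, left) or higher (red, right) with BRM014 than with DB2313, with the number of members called at the bar's end and the number tested in brackets. The dashed lines mark the shares over all genes, 30.9% lower and 30.4% higher; lymphoid markers, PU.1 targets and cholesterol genes stand at the top and histone genes at the bottom.

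Monocyte lineage markers, which check the label of the line, were at 1 CPM or more in 14 of 18 with BRM014 in both libraries, in 17 and 18 with DB2313 and in 17 with DMSO. Their levels summed to 911 and 854 CPM with BRM014, 2918 and 2608 CPM with DB2313 and 3384 and 3227 CPM with DMSO. Of the 18, 14 were lower and 3 higher with BRM014, beside 30.9% and 30.4% over all genes. The list also holds KMT2A and MLLT3, the fusion genes of the line. LYZ and MLLT3 were among the 3 higher. Markers of other cell types moved as well. The 15 lymphoid markers summed to 8.60 and 11.0 CPM with BRM014, 105 and 86.1 CPM with DB2313 and 30.6 and 33.8 CPM with DMSO, and 9 of 12 tested were lower. The granule protein NKG7 and the B-cell receptor chain CD79B made up most of the sum with DB2313 (52.4 and 39.4 CPM and 17.7 and 14.3 CPM). Erythroid and megakaryocyte markers summed to 63.0 and 66.8 CPM with BRM014, 199 and 206 CPM with DB2313 and 25.8 and 24.2 CPM with DMSO, carried with DB2313 by the platelet integrin ITGA2B (136 and 143 CPM), with 11 of 21 members at 0 in each BRM014 library and 10 and 13 in the DB2313 libraries.

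Epithelial and fibroblast markers summed to 144 and 147 CPM with BRM014, 78.6 and 80.4 CPM with DB2313 and 3.82 and 4.55 CPM with DMSO. With BRM014 this was mostly the collagen COL1A1 (109 and 116 CPM, against 23.5 and 27.9 CPM with DB2313) and CDH1, and with DB2313 mostly COL1A1 and the keratin KRT8 (43.1 and 43.0 CPM, against 0.525 and 1.62 CPM with BRM014). Of 11 members, 4 and 3 were at 0 with BRM014 and 4 and 5 with DB2313. The part of these markers in the results above was not tested.

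The fold change ran with the GC content of the transcript. With the genes divided into 5 equal groups of rising GC content, the median log2 difference was 0.29, 0.16, 0.03, -0.17 and -0.40. Between the 2 BRM014 libraries the same medians ran only between 0.09 and -0.08, and between the 2 DB2313 libraries between -0.07 and 0.04. Genes lower by at least 2-fold with BRM014 had a median GC content of 54.1%, those higher 46.7% and all tested 48.9%. The correction for this trend covered the 16054 tested genes with a GC value, and 10033 of these were called, of which 8513 had been called in the same direction without it and 20 in the other.

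**Figure D5:**
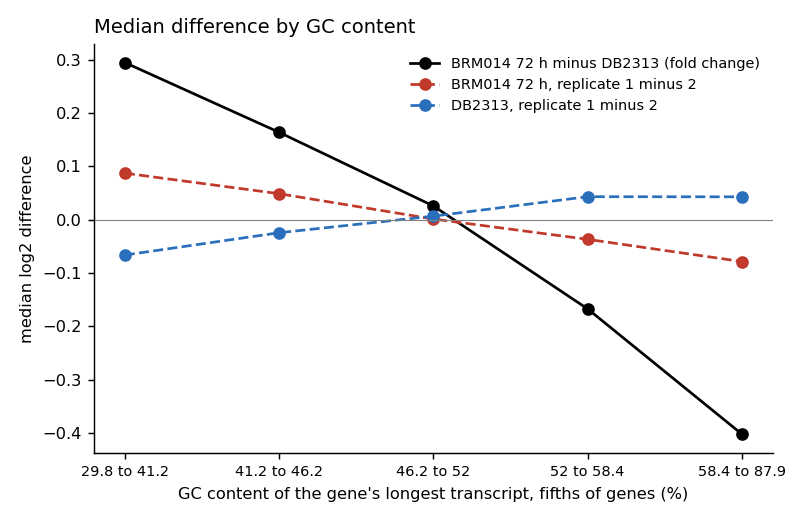
Median log2 difference in 5 equal groups of genes by the GC content of their longest transcript, for BRM014 minus DB2313 (black) and for replicate 1 minus replicate 2 within each group (dashed red for BRM014, dashed blue for DB2313). The black line runs from 0.29 to -0.40, and the dashed lines stay between -0.08 and 0.09.

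Genes that differed lay side by side in places. There were 75 runs of at least 4 neighbouring tested genes that were all lower by at least 2-fold with BRM014, and 23 runs that were all higher. These runs were picked out after the values were seen and are a description. A run of 9 genes on chromosome 6 (41149342 to 41654246) held TREM1, TREM2 and their relatives, and another of 7 on chromosome 1 (153534599 to 153632039) S100A genes. On chromosome 16 (31214021 to 31426505) ITGAM, ITGAX and ITGAD lay in a run of 5. Among the higher runs, one of 4 on chromosome 6 (26055787 to 26139116) held the histone genes HIST1H1C, HIST1H2BC and HIST1H2AC, and one on chromosome 16 (68636189 to 69118719) the cadherins CDH3 and CDH1.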

How the data were processed

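RNA of THP-1 cells was sequenced after poly(A) capture, in 2 libraries per group, per the labels' protocols. The deposited files hold raw read counts per gene symbol, 1 file a library. HISAT2 2.1.0, HTSeq, DESeq2 and the hg38 build are listed in the submitters' processing notes, with no roles. The annotation, counting options and strand setting are not given in the sources used here. The 5 summary lines that close each file entered neither totals nor tests; reads in no feature were 12.03% to 19.17% of a library.

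Counts were fitted with edgeR 4.0.16 in R 4.3.3 (TMM scaling, a filter at a minimum count of 10, glmQLFit and glmQLFTest). One fit held all 22 libraries with 1 coefficient per group, and its contrast was BRM014 at 72 h minus DB2313. P-values were adjusted over the 16794 genes tested (Benjamini-Hochberg), and a gene was called at an adjusted p under 0.05. All adjusted p-values in the report are from this fit, unless DESeq2 1.42.0, the GC correction or a left-out library is named. Reads in genes numbered 15893489 to 21565666 per library; 3 counts in 1 library were 0.133 to 0.174 CPM in the 4 libraries compared. For a gene with no read in a group, a bound was set at 3 counts over the group; exact Clopper-Pearson intervals cover counting error only. On counts simulated for this contrast, 50 of 50 genes changed by a log2 size of 2 and 50 of 50 changed by 1 were recovered in each direction, with 11 false calls among 15425 unchanged genes. The simulation gave every gene the same spread, changed few genes and only ones with many reads. It therefore checks the working of the fit and measures neither recovery nor false calls in these libraries.

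The text names the 12 genes with the highest and the 12 with the lowest fold change among called genes with at least 10 CPM in the higher group and groups that do not overlap. It also names up to 4 called members per list and direction with the largest fold, and 12 genes whatever their value. Further list members (TLR4, FCER1G, BTK, FLI1, STAT2, IL1B, S100A8, S100A9, CD44, ITGA4, ETV5, SPRY2, MCL1, VIM, ITGAV and those given as not called) were picked after their values were seen. A few genes that the rule or the lists hold are counted but not reported here by name. The comparison and its 32 gene lists were chosen with earlier results of these data known. Gene positions and GC content are from GENCODE v29 on GRCh38; 15999 tested genes matched a single gene there and 16054 had a GC value; promoters are from RefSeq on GRCh38.p14, and strand is as annotated there.

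Same-numbered libraries of both groups did not deviate together (r = -0.01 across genes, 2 pairs), and no label ties them. Alternatives were other scalings, no filter, fewer libraries in the fit, a replicate block, DESeq2, leaving out each library and, added after the data were seen, a correction for GC content.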

Additional observations from a re-analysis of the deposited data

Results flagged for a closer look

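Reads that fell in no annotated feature, which enter no comparison, took a larger share of both treated groups than of the DMSO libraries. They made up 19.17% and 18.8% of the BRM014 libraries and 17.91% and 18.71% of the DB2313 libraries, against 16.48% and 15.83% with DMSO. Both BRM014 shares lay above both DB2313 shares. What these reads are was not tested.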

How the results depend on the processing

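The main count of 10287 called genes was 10265 with DESeq2's size factors in edgeR or with library size alone, 10363 with no filter, 9430 with the 10 THP-1 libraries only, 10228 with the 4 libraries only and 9796 with DESeq2. With the replicate block it was 10042; the numbers are not shown to pair the libraries. Leaving out 1 library gave 8886 to 9161 calls. Under these alternatives 8684 to 10194 calls kept their direction and 0 were called the other way. With the correction for GC content, which covered 16054 genes, 10033 were called, 20 of them the other way.

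Some directions turned. ITGAM with BRM014 minus DMSO was -0.018 with the THP-1 libraries only and -0.013 with the GC correction. CEBPA with BRM014 minus DMSO was -0.0012 without BRM014 replicate 2, 0.12 without BRM014 replicate 1 and -0.27 with the GC correction. With BRM014 minus DB2313, the GC correction gave 0.083 for SMARCA4 and 0.0064 for SMARCD2, which had been called lower without it. The cause was not tested. With 2 libraries in each group, 3943 genes were neither called nor bounded within 1.5-fold.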
